A study of Mus musculus with 6 samples.

Results

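The genes described here encode the subunits of RNA polymerases I, II and III and of Mediator, in single mouse embryos with and without Rbpj. They were chosen by symbol alone, as names built from Polr1, Polr2 or Polr3 and letters, from Med and a number, or as Cdk8 and Ccnc. In the deposited table of 12125 genes there were 59 matches, 5 with polymerase I symbols, 13 with polymerase II symbols, 9 with polymerase III symbols and 32 of Mediator. The rule itself uses no measured value, but it was chosen with earlier results of these data known. All 59 had a value above 1 in at least 3 embryos and were tested. Polr3gl, which encodes an alternative to the polymerase III subunit of Polr3g, is not analysed here.

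RNA of 6 single morulae, compacting embryos at embryonic day 2.5, was amplified as poly(A)-primed full-length cDNA and sequenced as 1 library per embryo, to ask which transcripts change when Notch signalling cannot reach the genome. The 3 Rbpj-/- morulae were embryos 6 and 7 of litter 808, called the 808 mutants here, and embryo 4 of litter 810, the 810 mutant, and their values are given in this order. The 3 controls were the Rbpj+/- heterozygote, embryo 1, and the Rbpj+/+ wildtypes, embryos 3 and 4, all of litter 808. The null Rbpj line was kept heterozygous in an outbred background, the allele carries Neo, and the dams of these embryos were not superovulated. The only embryo of litter 810 was an Rbpj-/- embryo, so for it litter and genotype cannot be told apart. Values are CPM (read counts scaled to a common library size) after TMM scaling, which the authors computed to make the libraries comparable.

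Rbpj encodes the factor through which cleaved Notch reaches its target genes. Its value was 10.5, 24.3 and 1.32 in the Rbpj-/- morulae, against 37.0 in the heterozygote and 111 and 96.9 in the wildtypes. The genotypes had been read from Rbpj and Neo transcripts, so this is no independent check. The 808 mutants had 2962425 and 4330126 reads and the 810 mutant had 10064016, against 12690030 to 14585313 in the controls. A value of 3 reads, the limit below which a gene could not be told from 0, lay between 0.201 and 1.09. The members rested on at least 5 reads in every embryo. Of 11 morula markers 10 were in the table, and Sox2 was not. None of 8 cumulus markers was in the table. The summed value of 6 oviduct markers was 19.2 to 202 in Rbpj-/- embryos and 50.7 to 156 in controls. Globin and other blood transcripts summed to 210, 41.5 and 7305 in Rbpj-/- embryos and to 1110, 5.39 and 5447 in controls, with no order by genotype.

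RNA polymerase I makes the large ribosomal RNA precursor, RNA polymerase II makes messenger RNA, and RNA polymerase III makes transfer RNA and other small RNAs. In each of them the pair of largest subunits forms the active centre, and a set of small subunits is shared, some by all 3 enzymes and some by I and III. Mediator is the large complex that carries signals of DNA-bound activators to RNA polymerase II. Its head and middle modules contact the polymerase, its tail receives many activators, Med14 is the backbone, and a separable kinase module with Cdk8 and cyclin C regulates the rest. A morula builds its own transcripts and ribosomes with these machines, and an activator complex of Notch, RBPJ and Mastermind works through Mediator.

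Because RBPJ binds DNA at the sequence TGGGAA, promoter windows are given first for 5 polymerase genes on which the results below turn, 3 that fell and 2 that rose between littermates. Each is the 300 bases from 250 before to 50 after the RefSeq transcription start on build GRCm38.p6, written 5′ to 3′ along the gene, with capitals for TGGGAA or its complement TTCCCA.
Polr1a (fell, chr6:71908803-71909102, plus strand): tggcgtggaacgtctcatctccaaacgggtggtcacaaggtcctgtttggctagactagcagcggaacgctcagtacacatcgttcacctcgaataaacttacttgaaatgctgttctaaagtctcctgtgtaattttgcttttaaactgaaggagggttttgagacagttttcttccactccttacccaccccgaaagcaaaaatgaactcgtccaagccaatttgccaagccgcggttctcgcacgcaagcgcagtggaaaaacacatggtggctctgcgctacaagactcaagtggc
Polr1b (fell, chr2:129100746-129101045, plus strand): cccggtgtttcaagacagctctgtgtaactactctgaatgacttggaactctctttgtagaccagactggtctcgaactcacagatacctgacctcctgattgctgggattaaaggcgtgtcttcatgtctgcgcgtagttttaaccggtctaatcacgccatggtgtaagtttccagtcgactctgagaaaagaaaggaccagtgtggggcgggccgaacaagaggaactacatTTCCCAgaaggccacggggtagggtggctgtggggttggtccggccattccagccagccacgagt
Polr2a (fell, chr11:69758584-69758883, minus strand): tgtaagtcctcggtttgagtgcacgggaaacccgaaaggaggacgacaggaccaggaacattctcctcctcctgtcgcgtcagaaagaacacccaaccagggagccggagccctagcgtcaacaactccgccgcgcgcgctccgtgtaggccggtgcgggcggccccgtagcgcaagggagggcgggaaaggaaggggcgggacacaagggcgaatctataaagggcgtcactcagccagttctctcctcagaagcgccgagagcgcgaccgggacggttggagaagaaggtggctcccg
Polr1c (rose, chr17:46247996-46248295, minus strand): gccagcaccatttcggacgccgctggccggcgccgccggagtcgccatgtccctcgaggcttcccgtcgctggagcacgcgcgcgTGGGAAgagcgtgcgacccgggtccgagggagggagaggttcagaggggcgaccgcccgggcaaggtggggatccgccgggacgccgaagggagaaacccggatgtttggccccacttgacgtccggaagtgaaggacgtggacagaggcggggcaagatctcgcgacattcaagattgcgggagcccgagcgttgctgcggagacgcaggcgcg
Polr3k (rose, chr2:181864110-181864409, plus strand): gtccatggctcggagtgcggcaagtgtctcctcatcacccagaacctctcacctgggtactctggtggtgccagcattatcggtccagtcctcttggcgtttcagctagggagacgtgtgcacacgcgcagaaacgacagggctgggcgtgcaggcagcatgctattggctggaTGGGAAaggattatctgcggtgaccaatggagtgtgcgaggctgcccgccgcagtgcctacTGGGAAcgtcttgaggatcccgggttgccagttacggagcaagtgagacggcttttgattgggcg
The windows of Polr1a and Polr2a held no copy, those of Polr1b and Polr1c held 1 and that of Polr3k held 2. Over all members 49 genes had a window and 10 did not. TGGGAA on either strand was in 29.1% of the 55 member windows, against 25.6% of the 32851 windows of all genes. The longer form GTGGGAA, which contains TGGGAA, was in 9.09% of member windows and in 6.38% of all windows. By gene, TGGGAA was found in 28.6% of the 49 members and in 28.3% of all genes. It was in 1 of 7 members that fell, 7 of 18 that rose and 6 of 24 that did neither. A match is a description of the letters in these windows and shows no binding.

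Between littermates the genes of one complex went in opposite directions. In the 808 mutants the transcripts of large catalytic subunits, Polr1a, Polr1b, Polr2a and Polr3b, and of Med14, Med16, Med23 and Med24 in Mediator's backbone and tail were lower than in the control littermates, whereas many small subunits, among them all 7 that the polymerases share, were higher. Of 59 members 9 fell and 20 rose (limma on log2(value + 1) with litter as a term, adjusted p below 0.05 over 12099 genes), and rose, fell and called refer to this test where no other tool or step is named. Among all genes tested 11.3% fell and 5.85% rose, so that the share of members that fell was 15.3% and the share that rose was 33.9%. The median log2 fold change was 0.11 over the members and -0.16 over all genes. By edgeR on the recovered reads 7 fell and 18 rose, against 7.88% and 4.75% of all genes, and by DESeq2 13 fell and 25 rose, against 14.2% and 10.5%. These p-values rest on 2 Rbpj-/- embryos and 3 controls. Without Rbpj-/- embryo 6 of litter 808, 5 members fell and 1 rose, beside 858 and 204 of all genes, whereas all genes had 1366 and 708 with every embryo. Without Rbpj-/- embryo 7, 11 members fell and 18 rose, beside 1597 and 784 of all genes. Without the heterozygote 3 members fell and 3 rose (474 and 116 of all genes), without wildtype embryo 3 the counts were 3 and 0 (406 and 75), and without wildtype embryo 4 they were 5 and 1 (539 and 126). Polr1a, Polr1b and Med24 stayed called in every alternative run for this comparison. The less deep libraries were those of the 808 mutants, and the part of depth in these differences was not tested.

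**Figure D1:**
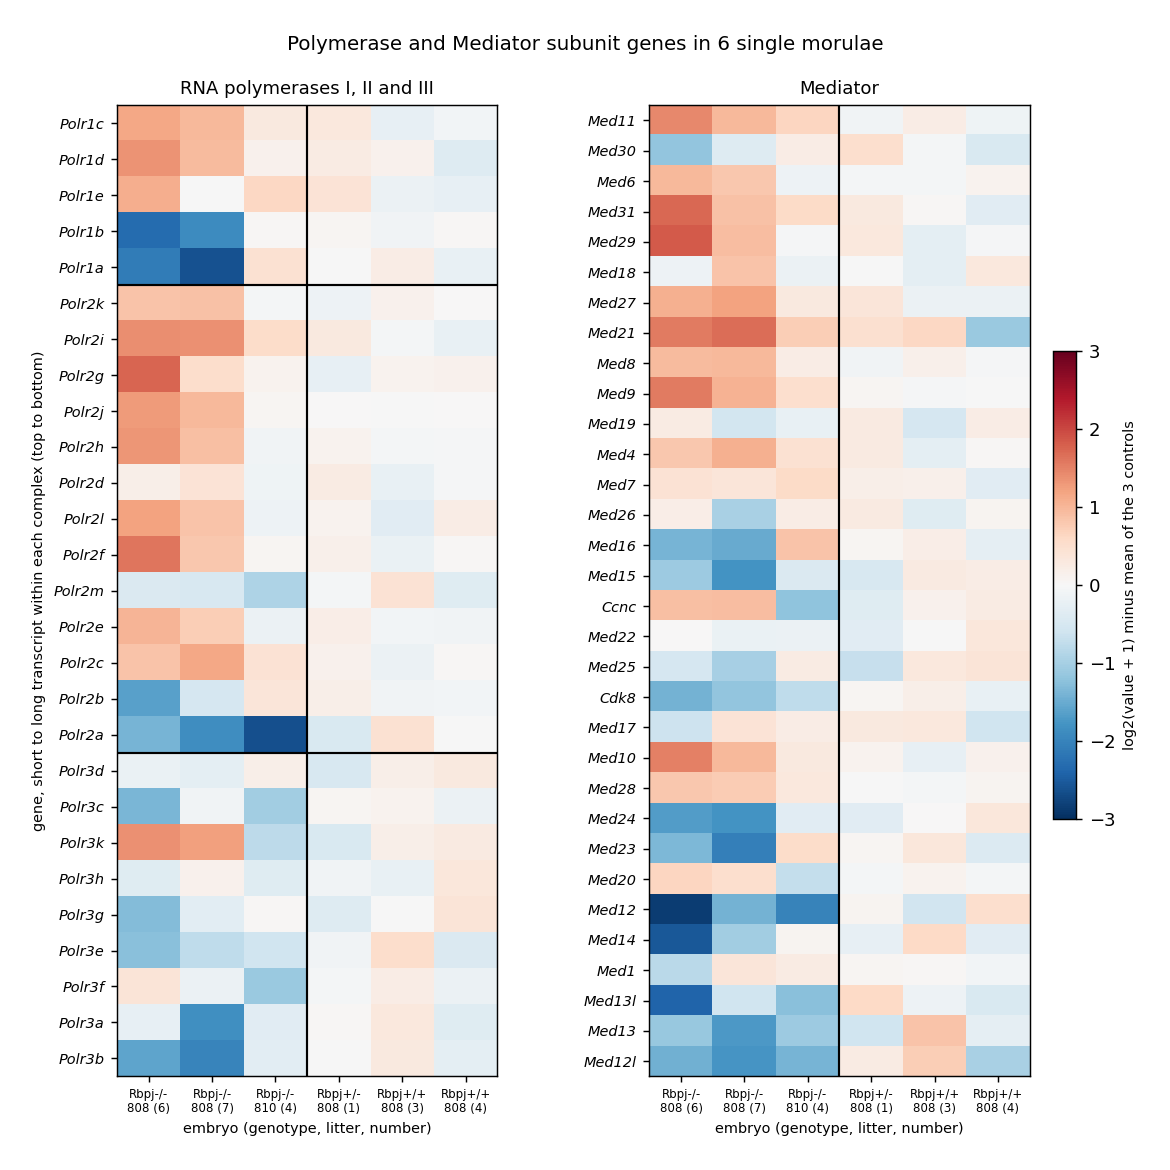
Each cell gives log2(value + 1) of a gene in an embryo minus the mean of the 3 controls, on a scale of -3 to 3, with polymerase genes on the left and Mediator genes on the right, ordered from short to long transcripts within each polymerase and within Mediator. Rbpj-/- embryos are the left 3 columns of each panel and controls the right 3. In the 808 mutants red cells gather toward the short transcripts and blue cells toward the long ones, and the 810 mutant is paler in most genes.

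Over all 6 embryos, with the 810 mutant counted as a replicate, no member passed the same test. By limma 0 fell and 0 rose, with a lowest adjusted p of 0.174, and among all genes tested 0.0% passed in either direction. At an unadjusted p below 0.05 by limma, 10 members were lower and 14 higher, beside 1377 and 608 of all 12099 genes. By edgeR on the recovered reads 0 passed too, with 7 lower and 16 higher at an unadjusted p below 0.05, beside 899 and 639 of all genes. DESeq2 on the same reads called Polr2a (adjusted p = 0.0142) and Med12l (adjusted p = 0.0437) lower and Polr2i (adjusted p = 0.0458) higher (over the alternatives the adjusted p of these genes ran up to 0.530, 0.551 and 0.548), against 1.83% lower and 1.11% higher among all genes. Without the 810 mutant the limma counts became 9 and 20. Counted by position alone, 10 members lay below every control in all 3 Rbpj-/- embryos and 12 lay above, 16.9% and 20.3% of the members, against 12.8% and 8.91% of all genes. For any single gene 3 embryos against 3 cannot give an exact two-sided permutation p below 0.1. In whole embryos, fewer cells of a kind and less RNA per cell cannot be told apart.

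RNA polymerase I was split between its catalytic pair and its shared subunits. Polr1a (ENSMUSG00000049553, chr6:71909053-71984935), the largest subunit, had values of 30.1 and 20.9 in the 808 mutants and 183 in the 810 mutant, against 132 in the heterozygote and 154 and 114 in the wildtypes. The 808 mutants were thus far below all controls and the 810 mutant was above them. The log2 fold change between littermates was -2.36 ± 0.30 (SE, adjusted p = 0.00212 by limma, and 1.23e-10 to 0.0266 over the alternatives), a value 5.24-fold higher in controls. Polr1b (ENSMUSG00000027395, chr2:129100995-129126594), which completes the active centre, had 49.0 and 65.9 in the 808 mutants and 253 in the 810 mutant, against 257, 228 and 251 in the controls. Its log2 fold change between littermates was -2.09 ± 0.24 (SE, adjusted p = 0.00186 by limma), while the 810 mutant lay within the controls.

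Polr1c and Polr1d form the assembly platform that polymerase I shares with polymerase III. Polr1c was at 381 and 336 in the 808 mutants and 209.8 in the 810 mutant, against 214, 144 and 163 in the controls. Polr1d was at 258 and 195 in the 808 mutants and 111 in the 810 mutant, against 120.2, 110.5 and 77.1 in the controls. Both rose between littermates (log2 fold changes 1.06 ± 0.24 and 1.15 ± 0.28, SE), and the 810 mutant was inside the control range for both. Polr1e, a polymerase I-associated factor, was not called (0.54 ± 0.39, SE, adjusted p = 0.379 by limma). The ratio of Polr1a to Polr1c was 0.0791 and 0.0621 in the 808 mutants and 0.873 in the 810 mutant, against 0.620, 1.08 and 0.700 in the controls.

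In RNA polymerase II 1 of 13 genes fell and 8 rose between littermates, 7.69% and 61.5%, against 11.3% and 5.85% of all genes. Polr2a (ENSMUSG00000005198, chr11:69733997-69758637), the largest subunit with the heptad-repeat tail that is phosphorylated through the transcription cycle, was low in all 3 Rbpj-/- embryos. It had values of 22.5 and 15.98 in the 808 mutants and 8.85 in the 810 mutant, against 44.1 in the heterozygote and 83.1 and 60.2 in the wildtypes, with no overlap. The mean was 15.8 ± 6.83 in Rbpj-/- embryos and 62.5 ± 19.6 in controls (SD, n = 3 each). The log2 fold change was -1.62 ± 0.43 between littermates (SE, adjusted p = 0.0325 by limma) and -1.96 ± 0.48 over all 6 embryos (adjusted p = 0.174 by limma, and 0.0142 to 0.530 over the alternatives). Polr2b, its partner in the active centre, had 69.7 and 155 in the 808 mutants and 284 in the 810 mutant, against 247, 204 and 209 in the controls. Its log2 fold change between littermates was -1.07 ± 0.33 (SE), and its adjusted p of 0.0512 by limma missed the threshold, while DESeq2 gave 0.0402 and edgeR 0.111 (0.00587 to 0.451 over the alternatives). The ratio of Polr2a to Polr2b was 0.323 and 0.103 in the 808 mutants and 0.0312 in the 810 mutant, against 0.179, 0.407 and 0.289 in the controls, so that only embryo 7 of the 808 mutants and the 810 mutant lay below all controls.

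Polr2c and Polr2j form the assembly platform of polymerase II. Polr2c had 338 and 415 in the 808 mutants and 252 in the 810 mutant, against 205, 165 and 192 in the controls. Polr2j had 295 and 237 in the 808 mutants and 126 in the 810 mutant, against 122, 119.7 and 123 in the controls. All 3 Rbpj-/- embryos were above all controls for both genes, by little in the 810 mutant for Polr2j. Polr2i, a small subunit that aids proofreading, had 113 and 110.4 in the 808 mutants and 62.8 in the 810 mutant, against 52.1, 40.2 and 36.0 in the controls, again with no overlap. All 3 rose between littermates, Polr2c to 2.01-fold and Polr2i to 2.61-fold the control mean, and the log2 fold changes of Polr2j and Polr2i were 1.12 ± 0.23 and 1.38 ± 0.31 (SE). Polr2d and Polr2g, the stalk, and Polr2m, which encodes a factor bound to the enzyme, were not called, with adjusted p of 0.543, 0.0941 and 0.263 by limma. Polr2m was nonetheless below all controls in the 3 Rbpj-/- embryos, at 219.6, 211 and 155, against 286, 398 and 229 in the controls.

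The 7 genes for subunits that more than one polymerase uses, Polr1c, Polr1d, Polr2e, Polr2f, Polr2h, Polr2k and Polr2l, all rose between littermates, with a median log2 fold change of 1.06. Polr2e had the highest value of the 7 without scaling for length, at 603 and 500.05 in the 808 mutants and 264 in the 810 mutant, against 343, 282 and 278 in the controls. Per kb of the longest transcript it had 125 in the controls, below Polr2k (207) and Polr1c (132). Polr2f was at 368 and 212 in the 808 mutants and 124 in the 810 mutant, against 134, 105 and 122 in the controls. Polr2h, Polr2k and Polr2l followed the same form, with log2 fold changes of 1.11 ± 0.24, 0.86 ± 0.23 and 1.03 ± 0.30 (SE). The 810 mutant was inside the control range for 5 of the 7 and below it for Polr2e and Polr2h, so the rise was measured in litter 808 alone. The summed value of the 7 was 2284 and 1813 in the 808 mutants and 996 in the 810 mutant, against 1119, 943 and 958 in the controls. The 6 largest subunits, those of the active centres of the 3 enzymes, summed to 225, 283 and 809.7 in the Rbpj-/- embryos, in the same order, against 783, 797 and 715 in the controls. The ratio of the 6 large to the 7 shared was therefore 0.0987 and 0.156 in the 808 mutants and 0.813 in the 810 mutant, against 0.700, 0.845 and 0.747 in the controls.

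In RNA polymerase III 1 of 9 genes fell and 1 rose between littermates, 11.1% each, against 11.3% and 5.85% of all genes. Polr3b, of the active centre, had 19.6 and 14.8 in the 808 mutants and 48.6 in the 810 mutant, against 60.3, 75.2 and 49.6 in the controls. All 3 Rbpj-/- embryos were below the controls, the 810 mutant just so, and the log2 fold change between littermates was -1.78 ± 0.37 (SE, adjusted p = 0.0140 by limma). Polr3a, the largest subunit, had 34.5, 10.8 and 32.0 in the Rbpj-/- morulae, against 42.3, 51.6 and 31.6 in the controls, and overlapped with them (adjusted p = 0.203 by limma). Polr3k, which acts in transcript cleavage and termination, had 176 and 159 in the 808 mutants and 38.7 in the 810 mutant, against 49.3, 76.2 and 81.9 in the controls. It rose by 1.29 ± 0.31 on the log2 scale between littermates (SE, adjusted p = 0.0218 by limma), and the 810 mutant lay on the other side of the controls. Polr3g, the form of its subunit that early embryos and pluripotent cells use, had 88.2, 175 and 223 in the Rbpj-/- morulae, against 166, 215 and 286 in the controls, and was not called. Of the other 5, none was called and adjusted p lay between 0.123 and 0.844 by limma.

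**Figure D2:**
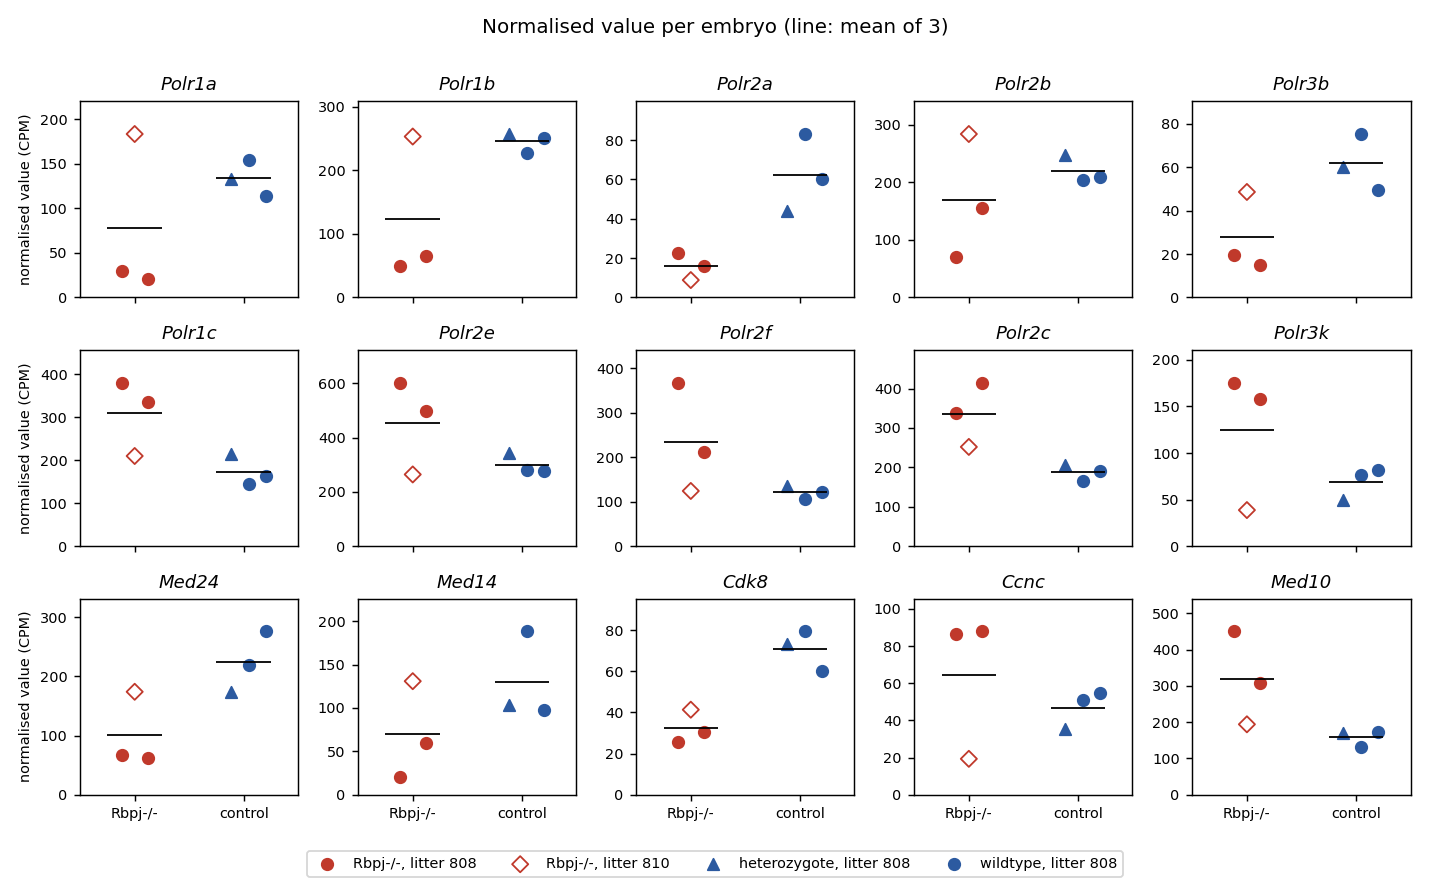
Normalised value (CPM) of 15 genes in each embryo, with Rbpj-/- on the left and control on the right of each panel, a line at the mean of 3, an open diamond for the 810 mutant and a triangle for the heterozygote. For Polr1a the diamond is at 183 and the other Rbpj-/- embryos at 30.1 and 20.9, while for Polr2a all 3 Rbpj-/- embryos are below all controls.

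In Mediator 5 of 32 genes fell and 9 rose between littermates, 15.6% and 28.1%, against 11.3% and 5.85% of all genes. In the tail, which receives activators, 3 of 5 fell and none rose, and the backbone gene Med14 fell too. Med24 (ENSMUSG00000017210, chr11:98704591-98729435) had 67.9 and 62.2 in the 808 mutants and 174 in the 810 mutant, against 174 in the heterozygote and 220.1 and 277 in the wildtypes. The 810 mutant and the heterozygote were equal to 3 digits, and the log2 fold change between littermates was -1.74 ± 0.27 (SE, adjusted p = 0.00430 by limma, and 4.37e-07 to 0.0443 over the alternatives). Med16 had 13.4 and 12.3 in the 808 mutants and 67.4 in the 810 mutant, against 38.2, 42.5 and 30.4 in the controls. Med23 had 11.98 and 6.88 in the 808 mutants and 46.9 in the 810 mutant, against 33.3, 40.5 and 23.9 in the controls. Both fell between littermates, by 1.45 and 1.70 on the log2 scale, and in both the 810 mutant was above all controls. Med14 had 20.3 and 60.0 in the 808 mutants and 131 in the 810 mutant, against 104, 188 and 97.1 in the controls. Its log2 fold change between littermates was -1.79 (adjusted p = 0.0290 by limma, and 0.143 with the length trend described below removed). EdgeR called neither Med14 (adjusted p = 0.0745) nor Med23 between littermates. Med15 and Med25 had negative log2 fold changes without passing (adjusted p = 0.0545 and 0.279 by limma).

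The kinase module holds a kinase and its cyclin together with large regulators, and its members did not go one way. Cdk8, the kinase, had 25.8 and 30.5 in the 808 mutants and 41.3 in the 810 mutant, against 73.5, 79.5 and 60.1 in the controls, with no overlap. Its log2 fold change between littermates was -1.30 ± 0.33 (SE, adjusted p = 0.0270 by limma). Ccnc, which encodes cyclin C, had 86.7 and 88.01 in the 808 mutants and 19.3 in the 810 mutant, against 35.4, 50.7 and 54.6 in the controls, on opposite sides in the 2 litters. Between littermates it was not called by limma (adjusted p = 0.0976) or edgeR (0.107). DESeq2 called it higher (adjusted p = 0.0351, and 0.0334 to 0.256 over the alternatives). The ratio of Cdk8 to Ccnc was 0.297 and 0.346 in the 808 mutants and 2.14 in the 810 mutant, against 2.08, 1.57 and 1.10 in the controls.

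The large regulators of the kinase module and their paralogues were below all controls in every Rbpj-/- embryo, though none passed by limma or edgeR in the littermate comparison. DESeq2 called Med12 (adjusted p = 0.0397, and 0.0375 to 0.326 over the alternatives) and Med12l (adjusted p = 0.0194, and up to 0.413) lower between littermates. Med12 had 1.81, 6.64 and 4.05 in the Rbpj-/- morulae, against 20.4, 12.7 and 27.7 in the controls, with 5 reads in the first. Med12l had 17.1, 13.3 and 17.5 in the Rbpj-/- morulae, against 56.6, 79.8 and 24.0 in the controls. Med13 had 15.2, 9.83 and 15.7 in the Rbpj-/- morulae, against 22.7, 63.0 and 28.8 in the controls, and Med13l had 4.72, 18.9 and 11.7 in the Rbpj-/- morulae, against 44.4, 26.2 and 21.1 in the controls. The gap was narrowest for Med13l. With Cdk8 these made 5 of the 6 kinase module genes below every control in every Rbpj-/- embryo. Polr2a, Polr2m, Polr3b, Polr3e and Med24 were the other members of which this held, as it did for 12.8% of all genes. Over all 6 embryos the log2 fold changes of Med12, Med12l, Med13 and Med13l were -2.09, -1.54, -1.32 and -1.41, with adjusted p of 0.202 to 0.290 by limma.

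The genes that rose lay in the head, in the middle and in the group that joins head and tail. In the middle 4 of 9 rose (Med4, Med9, Med10 and Med31), in the head 2 of 7 (Med6 and Med8) and in the link 3 of 4 (Med27, Med28 and Med29), and none of these 20 genes fell. Med10 had 451 and 309 in the 808 mutants and 194 in the 810 mutant, against 171, 132 and 174 in the controls, with no overlap. Its log2 fold change between littermates was 1.24 ± 0.25 (SE, adjusted p = 0.0128 by limma). Med29 had 276 and 146 in the 808 mutants and 74.9 in the 810 mutant, against 96.1, 62.4 and 74.4 in the controls. Med27 had 211 and 235 in the 808 mutants and 124 in the 810 mutant, against 129, 88.7 and 88.6 in the controls, and Med8 had 199 and 204 in the 808 mutants and 120.3 in the 810 mutant, against 95.2, 115 and 100.1 in the controls. Only Med8 and Med10 of these 4 were above all controls in the 810 mutant too. Med1, which binds nuclear receptors, and Med17, the centre of the head, were not called, with log2 fold changes of -0.22 and -0.12.

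The direction of the members between littermates followed the length of their transcripts. Length is that of the longest annotated transcript of each gene (GENCODE mouse release 21), and the 59 genes ran from 601 bases in Polr2k to 11006 in Med12l. Of the 20 shortest, up to 1958 bases, 14 rose and 0 fell, with a median log2 fold change of 1.13. Of the 19 between 2032 and 3896 bases 4 rose and 2 fell, with a median of -0.15. Of the 20 longest, from 3964 bases, 2 rose and 7 fell, with a median of -1.46. Genes that fell had a median length of 4975 bases and genes that rose 1668. Across the 59 genes Spearman's rho between length and the log2 difference from the controls was -0.71 and -0.67 in the 808 mutants and -0.34 in the 810 mutant, and -0.24, 0.34 and -0.13 in each control against the mean of the other controls. Across all 11995 genes with a length it was -0.40, -0.38 and -0.15 in the Rbpj-/- embryos and -0.08, 0.10 and -0.01 in the controls. Genes of one embryo share a library, and no p is given.

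**Figure D3:**
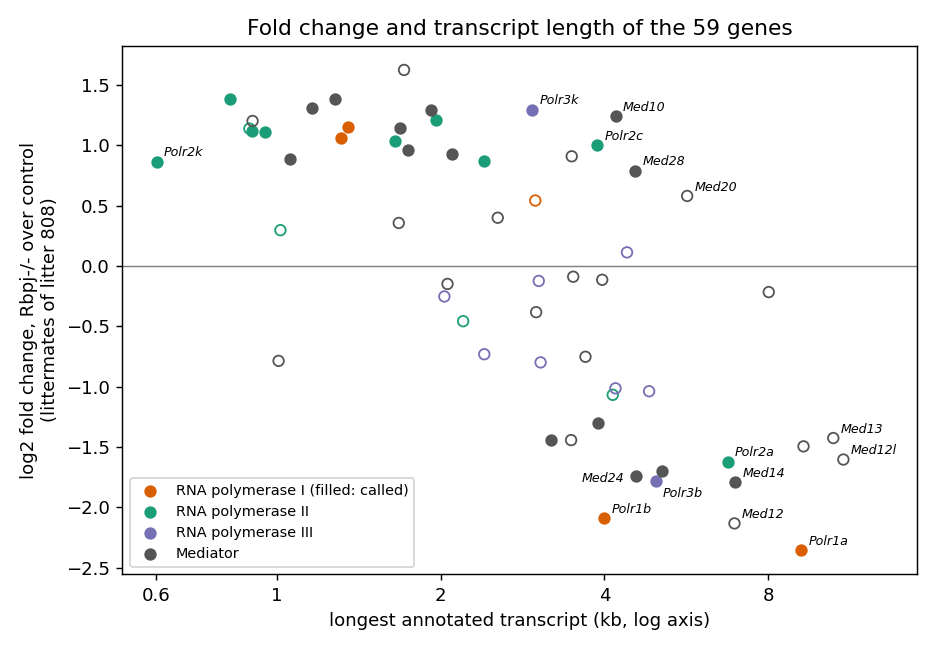
Each point is 1 of the 59 genes, with the length of its longest annotated transcript (kb, log axis) across and its log2 fold change between Rbpj-/- and control littermates up. Filled points passed the test. Points run from the upper left (Polr2k, 601 bases, 0.86) to the lower right (Polr1a, 9216 bases, -2.36), with Polr2c, Med10, Med28 and Polr3k above that run.

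The length dependence was then removed by subtracting from each embryo a smooth trend with log2 length fitted over all genes. In the littermate comparison 3 members remained lower, Polr1a, Polr1b and Med24, and 5 were higher, Med10, Med28, Polr2c, Polr3k and Med20, among which Med20 had not been called by limma without this step (adjusted p = 0.126, against 0.0277 by DESeq2, and 0.00767 to 0.269 over the alternatives). Among all genes 6.7% were lower and 2.93% higher after this step, and the shares of the members were 5.08% and 8.47%. Polr1a kept a log2 fold change of -1.72 (adjusted p = 0.00713 by limma), Polr1b of -1.75 (0.00329) and Med24 of -1.27 (0.0162). Polr2c, Med10, Med28 and Polr3k gave 1.31, 1.63, 1.26 and 1.34, with adjusted p of 0.00677, 0.00673, 0.00851 and 0.0266 by limma. Of the 7 shared subunits none passed, their median was 0.43, and Polr2k turned to -0.10. Polr2a gave -0.99 (adjusted p = 0.174 by limma) and Cdk8 -0.99 (0.0860). Med12, Med12l, Med13 and Med13l gave -1.50, -0.98, -0.80 and -0.86 (adjusted p of 0.231 to 0.459 by limma). No kinase module gene was called after this step. The median transcript of each gene was also used in place of the longest, an alternative chosen after the data were seen. Longest and median lengths differed widely in some genes on either side. They were 3881 and 830 bases in Polr2c, 4197 and 712.5 in Med10, 4560 and 734 in Med28 and 9216 and 1058.5 in Polr1a. With the median transcript 7 members were lower and 7 higher, beside 1121 and 419 of all genes. The shared subunits Polr1c and Polr2h were among those higher. Med10, Polr2c and Polr3k passed there too, whereas Med28 and Med20 did not. With each embryo centred as well as the longest-transcript trend removed, also chosen after the data were seen, 3 were lower and 8 higher, beside 476 and 651 of all genes. Polr2e, Polr2f and the kinase module gene Ccnc were among the 8. With median lengths the rho of the members was -0.30, -0.28 and -0.39 in the Rbpj-/- embryos. Over all alternatives of the littermate comparison the adjusted p ran from 1.07e-13 to 0.0228 for Polr1b, 2.92e-05 to 0.0817 for Polr2c, 3.09e-05 to 0.0698 for Med10, 0.000683 to 0.128 for Med28 and 0.000654 to 0.0901 for Polr3k. A step that takes away length takes away any change of genotype that goes with length as well.

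**Figure D4:**
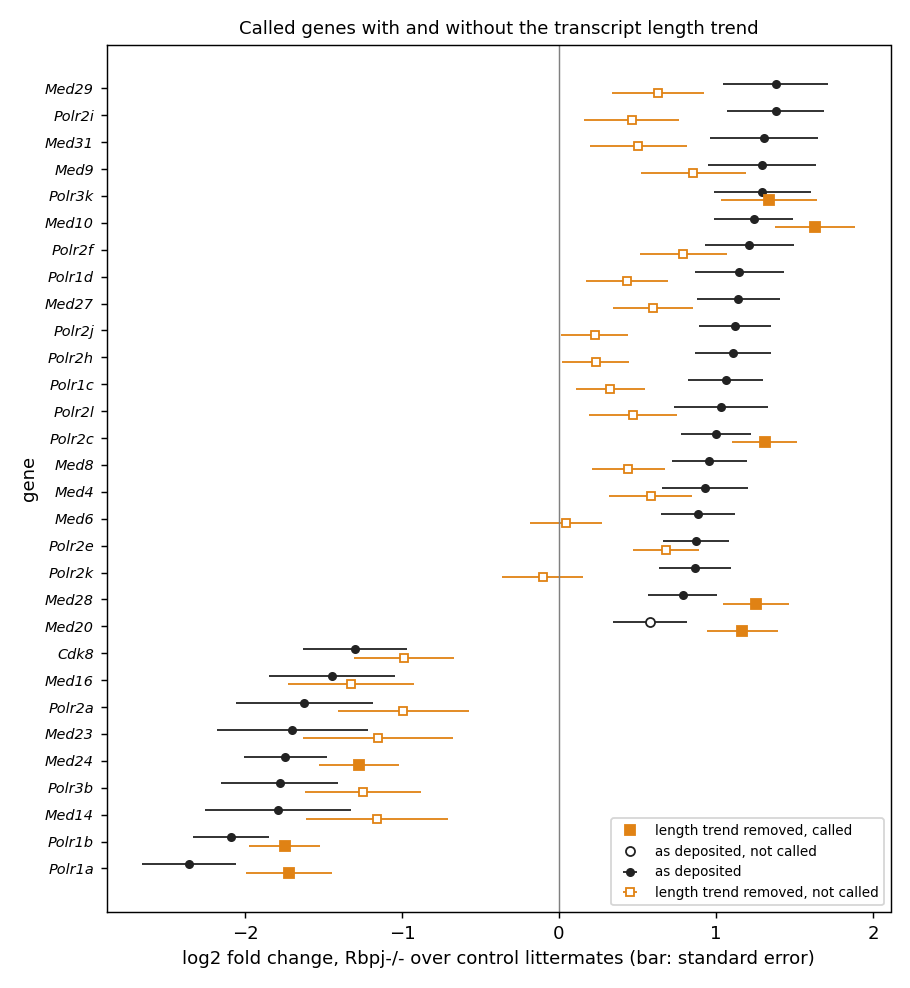
Log2 fold change between Rbpj-/- and control littermates (bars, standard error) of the 30 members called with or without the length step. Black is as deposited, orange is after the trend with the longest transcript was removed, and filled symbols are calls. With the median transcript, not drawn here, Med28 and Med20 were not called. Polr1a, Polr1b and Med24 stay called on the lower side and Med10, Med28, Polr2c and Polr3k on the higher side, while the orange squares of most others are closer to 0.

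The 810 mutant lay above the control range for 18 members and below it for 19, against 29.1% and 29.6% of all genes. The 808 mutants lay both above for 26 and both below for 17, against 21.2% and 27.0% of all genes. In 10 members, 16.9% against 9.78% of all genes, the litters lay on opposite sides of all controls. The difference between the litters among Rbpj-/- embryos was fitted by the litter term, which rests on 1 embryo of litter 810 and assumes that this lone embryo varies like those of the other groups. Polr1a (log2 difference 2.82 ± 0.40, SE, adjusted p = 0.0129 by limma) and Polr1b (2.14 ± 0.33, adjusted p = 0.0153) were higher in the 810 mutant, and Polr3k (-2.08 ± 0.41, adjusted p = 0.0386) and Ccnc (-2.12 ± 0.46, adjusted p = 0.0481) were lower, against 1.83% higher and 0.636% lower among all genes. For Polr2a the same term was -1.02 ± 0.58 (adjusted p = 0.334 by limma).

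Levels within each complex can be set side by side only per length, here as mean value per kb of the longest transcript. In the controls Polr2a had 9.27 per kb, the lowest of the 13 polymerase II genes, and the others ran from 38.3 in Polr2g to 207 in Polr2k. In the 808 mutants Polr2a had 2.85 per kb and Polr2k 377. In polymerase I Polr1a had 2.77 per kb in the 808 mutants and 14.5 in the controls, and Polr1c had 273 in the 808 mutants and 132 in the controls. In Mediator Med12 was lowest, at 0.609 per kb in the 808 mutants and 2.92 in the controls, and Med6 was highest, at 196 in the 808 mutants and 106 in the controls.

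Genes that work beside these machines were set next to them, from lists chosen with earlier results of these data known. Of 4 polymerase subunits that carry other symbols 2 rose between littermates and none fell, and these were Znrd1 (291 and 137 in the 808 mutants and 59.2 in the 810 mutant, against 97.4, 60.1 and 87.2 in the controls) and Crcp. Cdk19, the paralogue of Cdk8, was not called (adjusted p = 0.516 by limma). Of 9 polymerase I factors 4 fell and none rose, among them Tcof1, which supports ribosomal RNA synthesis (41.0 and 30.0 in the 808 mutants and 125 in the 810 mutant, against 129, 141 and 123 in the controls), and Taf1c, a promoter selectivity factor. Of 30 pausing and elongation factors 6 fell and 2 rose, with Supt5, the pausing and elongation factor that travels with polymerase II, at 159 and 149.7 in the 808 mutants and 413 in the 810 mutant, against 555, 500.1 and 488 in the controls. Of 32 TFIID and general factors 5 fell and 5 rose, with log2 fold changes of -2.30 for Taf4b and 1.25 for Gtf2f2. Of 16 polymerase III factors 3 fell and 1 rose, among them Snapc4, needed for small nuclear RNA genes, at 0.363 and 4.18 in the 808 mutants and 9.60 in the 810 mutant, against 45.6, 33.5 and 45.8 in the controls. The first of these Snapc4 values is 1 read. Of 11 polymerase assembly factors none fell and 1, Gpn3, rose. The background shares for these counts are the 11.3% and 5.85% given above, and over all 6 embryos no gene of these lists passed by limma. DESeq2 over all 6 embryos called 2 TFIID and general factors lower and 2 higher and 1 polymerase III factor lower, against 1.83% and 1.11% of all genes. Among these were Taf4b (adjusted p = 0.0444) and Snapc4 (0.0105), lower, and Gtf2f2 (0.0282), higher. For each of these named genes the adjusted p ran up to 0.530 over the alternatives. With the length trend removed the counts lower and higher between littermates were 0 and 0 for the subunits with other symbols, 3 and 0 for polymerase I factors, 3 and 1 for pausing and elongation factors, 2 and 7 for TFIID and general factors, 2 and 0 of 15 polymerase III factors with a length and 0 and 1 for assembly factors.

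The libraries do not keep strand, and exons of 14 members overlap another gene of the table. The longest overlap was 2391 bases, between Med10 and Gm26819 on the opposite strand. Reads there cannot be told apart, which concerns Med10 and, with overlaps of 82 to 450 bases, Ccnc, Med13, Med20, Polr2b, Polr2c, Polr2f, Polr2h, Polr2i, Polr2j and Polr3b among the genes described here.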

How the data were processed

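The signal values are gene counts that the authors obtained with RSEM (1.2.3 per the labels, another release in the paper's methods) on GRCm38 transcripts after CASAVA 1.8.2 and cutadapt 1.3, normalised with TMM in edgeR and deposited as CPM for 12125 genes, 113 of them unnamed here. The sources used here do not give the filter behind the table. Every value was within 0.01 of a whole number of reads (100% of values), which gave the depths. Limma 3.58.1 in R 4.3.3 was fitted to log2(value + 1) for 12099 genes (value above 1 in 3 or more embryos), with a variance trend, two-sided tests and Benjamini-Hochberg adjustment (threshold 0.05), with genotype alone (all 6 embryos) or with litter (littermates). EdgeR 4.0.16 (quasi-likelihood) and DESeq2 1.42.0 used the recovered reads. Each embryo is 1 replicate. Limits of 3 reads cover counting error only. Alternatives also included a pseudocount of 0.1 or 5, the unfiltered table, a mean of at least 10, median of ratios and quantile scaling, no heterozygote, each embryo left out, and a loess trend with length (span 0.5) removed.

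Genes named by role were the largest and shared subunits, Med14, the kinase module and Polr3g, with up to 4 lower and 4 higher genes of smallest p per class and 2 per related list. Other names (Polr2m, Polr2d, Polr2g, Med15, Med25, Med23, Med1, Med17, Med20 and further called members) were added after their values were seen. The members and lists were chosen with earlier results of these data known. Lengths and coordinates came from GENCODE mouse release 21 and promoters from RefSeq. Lists covered morula, cumulus, oviduct and blood markers, subunits with other symbols, and factors of polymerases I, II and III and their assembly. The limma, edgeR and DESeq2 fits were run on simulated counts that held no length trend and no litter effect. The length step and the recovery of reads were not tested in this way.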

Additional observations from a re-analysis of the deposited data

Results flagged for a closer look

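In 10 members, 16.9% against 9.78% of all genes, the Rbpj-/- embryos of litter 808 lay all on one side of the 3 controls and the Rbpj-/- embryo of litter 810 on the other. The values below are the log2 difference between the litter 810 embryo and the litter 808 embryos. It was 2.82 for Polr1a, -2.08 for Polr3k, -2.12 for Ccnc, 1.44 for Polr2b, -1.05 for Polr2e, -1.22 for Polr2h, -1.28 for Med20, -1.05 for Med6, 2.30 for Med16 and 2.24 for Med23. These genes were picked by the same positions, so the values are a description and no test is given with them. Litter 810 is 1 embryo, so its litter, its genotype and the embryo itself cannot be told apart.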

How the results depend on the processing

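Over all 6 embryos limma called 0 members lower and 0 higher, DESeq2 2 and 1, and leaving out 1 embryo at a time gave 0 to 9 lower and 0 to 20 higher, the upper values without the embryo of litter 810. Between littermates (9 lower, 20 higher) the counts were 3 and 3 without the heterozygote, 3 and 5 with the length trend removed, 3 and 8 with each embryo centred as well, and 7 and 7 with the trend of the median transcript, these last 2 steps chosen after the data were seen. Leaving out 1 embryo at a time gave 3 to 11 lower and 0 to 20 higher. Of all genes 1366 were lower and 708 higher between littermates, and 804 and 351 with the length trend removed. The counts of all genes were 476 and 651 with each embryo centred as well, and 1121 and 419 with the trend of the median transcript. DESeq2 called 1718 and 1269 of all genes. Quantile scaling moved the median of all genes on the log2 scale by 0.26 between littermates and by 0.18 over all 6 embryos. It called 6 members lower and 20 higher between littermates, beside 953 and 665 of all genes. The log2 fold change of Polr2k turned to -0.10 with the length trend removed, the only reversal of a called member in that step. Members that passed by neither fit and changed direction in the same step included Polr2d (to -0.56), Med18 (to -0.19), Med1 (to 0.42), Med17 (to 0.22) and Med22 (to 0.12). Fold changes were also counted over the genes that the naming rule picked and the alternatives of the littermate comparison. Of these 398 kept their call, 144 no longer passed, 15 newly passed and 1 reversed. A change of direction where neither fit passed counts among those that kept their call. The alternatives are not all separate. The fit without the heterozygote was counted under its own name and again among the embryos left out. Leaving out the 810 mutant could change little between littermates, since the litter term already fits that embryo. The causes of these shifts were not tested. No paired analysis was possible because the replicate numbers follow accession order and pair no embryos. With 3 embryos a group and 2962425 reads in the shallowest, changes of low genes such as Med12 were not measured closely.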
